A study of Homo sapiens with 6 samples.

Results

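Cytosolic ribosomal proteins are the protein parts of the ribosome, the machine that reads mRNA and builds protein in the cytoplasm. They were chosen here as every probe set with exactly 1 platform gene symbol of the RPL or RPS form or of the acidic stalk and laminin receptor types (RPLP0, RPLP1, RPLP2, RPSA). The rule found 120 probe sets for 59 genes, of 54675 probe sets and 19775 named genes in all. Of the 59 genes, 38 code for large-subunit proteins and 21 for small-subunit proteins. A further 65 probe sets name a ribosomal protein gene together with other symbols and were left out, and 15 ribosomal protein genes are met only through these.

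RNA came from CL1-5, called highly invasive, and CL1-0, called poorly invasive, a pair of lung adenocarcinoma lines with the same parental line, CL1. Each line was hybridised as 3 biological repeats, on 6 one-colour Affymetrix arrays in all, and both were grown in RPMI medium with fetal bovine serum and antibiotics. Each group is 1 line, so a difference is one between these lines and their histories, and 3 arrays a line limit the precision. In bulk RNA, fewer cells with a transcript and less of it per cell cannot be told apart, and RNA per cell was not measured.

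The human cytosolic ribosome has a small subunit, which decodes the mRNA, and a large subunit, which joins amino acids and passes the chain out through a tunnel. Its proteins are made in matching amounts, and their mRNAs are among the most abundant in growing cells. These mRNAs are known for a pyrimidine-rich start, the 5′ terminal oligopyrimidine or TOP motif, through which mTOR signalling and the LARP1 protein set their translation. Some subunits have paralogs, near-copies used in particular tissues, and most have many processed pseudogenes, so that short probes can meet more than 1 transcript.

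The starts of 12 of these genes are shown, some with a pyrimidine run at the annotated start and some without. Each line runs from 10 bases before the annotated transcription start to 20 from it on, 5′ to 3′ on the gene's own strand, from RefSeq on GRCh38.p14. Capitals mark the longest run of at least 5 pyrimidines (C or T) that reaches to within 5 bases of the start. Those of RPL14, RPS23, RPL31, RPL22, RPL22L1, RPS27L and RPL10L belong to genes lower in CL1-5, those of RPS25, RPS29 and RPL35 to genes higher in CL1-5, and those of RPL39 and RPL35A to genes that did not pass the test.
RPL14, chr3:40457329-40457358, + strand: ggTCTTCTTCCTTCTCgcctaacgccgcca
RPS23, chr5:82278335-82278364, - strand: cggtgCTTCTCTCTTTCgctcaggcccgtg
RPL31, chr2:101002279-101002308, + strand: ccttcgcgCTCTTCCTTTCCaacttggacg
RPL22, chr1:6199576-6199605, - strand: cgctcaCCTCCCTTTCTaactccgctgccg
RPL22L1, chr3:170870176-170870205, - strand: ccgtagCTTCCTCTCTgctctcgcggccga
RPS27L, chr15:63157458-63157487, - strand: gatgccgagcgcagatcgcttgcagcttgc
RPL10L, chr14:46651762-46651791, - strand: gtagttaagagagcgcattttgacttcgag
RPS25, chr11:119018324-119018353, - strand: gcagcgCTTCCTTTTTgtccgacatcttga
RPS29, chr14:49598691-49598720, - strand: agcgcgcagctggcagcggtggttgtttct
RPL35, chr9:124861938-124861967, - strand: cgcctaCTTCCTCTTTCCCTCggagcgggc
RPL39, chrX:119791611-119791640, - strand: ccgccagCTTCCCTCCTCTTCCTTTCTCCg
RPL35A, chr3:197950180-197950209, + strand: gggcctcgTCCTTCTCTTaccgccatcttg

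A start sequence was found for 51 of the 59 genes. Runs were judged against the annotated start only, and whether these lines use that start was not tested. A pyrimidine run at the start was present in 44 of these (86.3%), against 42.3% of all 15382 array genes with a start sequence. Among members other than the 7 extra paralogs it was present in 43 of 46, and among the 5 paralogs with a sequence in 1, RPL22L1. By direction of change, it stood at the start of 2 of the 4 genes called higher, 16 of the 18 called lower and 26 of the 29 not called, which was not tested. Within the 300-base window from 250 before to 50 after the start, on both strands, CCGGAAG, a motif of GABP and other ETS factors, was in 37.3% of members, against 16.6% of all array genes. AAGATGGC, a motif of YY1, was in 9.8% of members, against 4.75% of all. GGGCGG, a motif of SP1, was in 56.9% of members, against 64.6% of all. The ETS and YY1 motifs share the letters AAG, so that 1 stretch can hold both, and a match is a description of the letters only.

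Ribosomal protein mRNAs were among the brightest signals on every array. Signals are the authors' deposited intensities on a linear scale. A total of 45 of the 59 genes averaged at or above the 99th percentile of all probe sets, and 42 of the 100 brightest named genes were ribosomal protein genes. The brightest members were RPL41, with 18986, 19126 and 18467 in the CL1-5 arrays and 18405, 18503 and 18674 in the CL1-0 arrays, and RPS18, with 18960.2, 19488 and 18562 in CL1-5 and 18580.2, 18842 and 17536 in CL1-0. Neither line stood apart for these genes, since their values overlap. All member probe sets together took 5.59%, 5.54% and 5.31% of the summed signal in CL1-5 and 5.84%, 5.85% and 5.78% in CL1-0. Every CL1-5 array lay below every CL1-0 array in this share, which was not tested further because it is a sum over the members.

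All 59 genes passed the filter on dim probe sets (above the 40th percentile of the array on at least 3 of 6 arrays). Of these, 6 were called higher in CL1-5, 19 were called lower and 34 did not pass the test, by limma with Benjamini-Hochberg adjustment over all 14828 genes tested and a threshold of 0.05. That is 42.4% of members called, against 51.6% of all genes tested (23.3% higher and 28.3% lower). The lines did not overlap in 31 of the 59 genes (52.5%, against 58.8% of all genes). These include all 25 called genes, whose sign was therefore bound to be the same in each of the 3 repeats. Of the 25, RPL36A and RPL7 passed the filter only through the CL1-0 arrays, which favoured a lower call. The median log2 fold change of CL1-5 over CL1-0 was -0.08 in members and -0.03 in all genes. With cyclic loess scaling between arrays the split was 15 higher and 15 lower of 59, when 51.5% of all genes were called. The median moved to 0.02, and 21 of the 25 calls remained. With repeats 1 and 2 of each line alone, 6 were higher and 25 lower, when 55.1% of all genes were called. In both of these settings the called share of members was close to that of all genes.

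Among the 100 brightest named genes, a level chosen after seeing the data, the 42 ribosomal protein genes had a median absolute log2 fold change of 0.09, against 0.38 in the 58 others. Of these members 38.1% were called, against 63.8% of the others and 53% of all 100. A change of at least 2-fold was called in 0 of these members and in 6 of the others (6% of the 100). The members lie higher within this range, at a median signal of 12596, against 7863 in the others, and the part of brightness in these figures was not tested. The standard error of a member's log2 fold change had a median of 0.06, against 0.11 over all genes. Over all 59 members, a change of at least 2-fold was called in 2, RPL31 and RPL22, both lower in CL1-5, against 16.1% of all genes tested. The other probe sets of RPL31 and RPL22 changed by less than 2-fold. Across members the log2 fold change ran from -1.53 for RPL31 to 0.35 for RPS25.

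**Figure D1:**
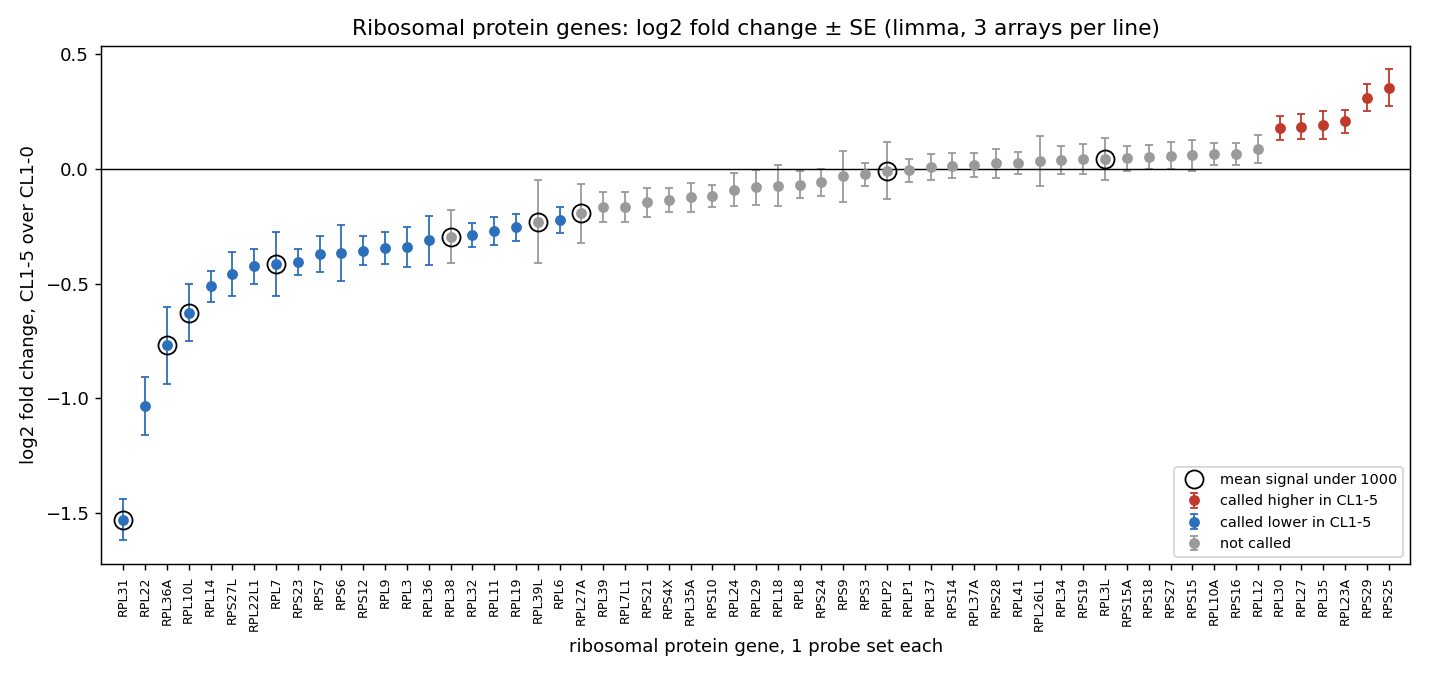
Log2 fold change of CL1-5 over CL1-0 for the 59 ribosomal protein genes in order of size, with limma standard errors from 3 arrays per line. Red points were called higher, blue points lower and grey points not called, and rings mark genes with a mean signal under 1000. Most genes lie near 0, the 6 red points reach 0.35 at the right, and RPL31 and RPL22 lie below -1 at the left.

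Large-subunit genes counted 4 higher and 14 lower of 38, with a median log2 fold change of -0.15. Small-subunit genes counted 2 higher and 5 lower of 21, with a median of -0.02. Called shares were 47.4% in the large subunit and 33.3% in the small one, against 51.6% of all genes tested. With cyclic loess the split was 7 higher and 11 lower in the large subunit (median -0.03) and 8 higher and 4 lower in the small one (median 0.09), so the direction of the small-subunit median depends on the scaling. The difference between the subunits was not tested.

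The 6 genes higher in CL1-5 were RPS25, RPS29, RPL23A, RPL35, RPL27 and RPL30. RPS25, a small-subunit protein near the exit site that some viral internal ribosome entry sites need, had signals of 6467, 7205 and 6645 in CL1-5 and 5364, 4815 and 5745 in CL1-0. Every CL1-5 array lay above every CL1-0 array, and the log2 fold change was 0.35 (SE 0.08, adjusted p = 0.0053). RPS29, a zinc-binding protein of the small-subunit head, had 13675, 13446 and 12600.5 in CL1-5 and 11004, 10747 and 10271 in CL1-0. These ranges are also separate, with a log2 fold change of 0.31 (SE 0.06, adjusted p = 0.0017).

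RPL23A and RPL35 sit at the mouth of the exit tunnel, where factors such as the signal recognition particle dock on the growing chain. The RPL23A signal was 17683, 17937 and 16982 in CL1-5, against 15359.6, 15389 and 14825 in CL1-0, a log2 fold change of 0.21 (SE 0.05, adjusted p = 0.0075). Its 1 probe set is of the x kind, whose probes can bind other transcripts. For RPL35 the signal was 10543, 10515 and 9713 in CL1-5, against 9162, 9248 and 8528 in CL1-0 (log2 fold change 0.19, SE 0.06, adjusted p = 0.028). RPL27, a large-subunit protein, measured 10638, 10897 and 10910.0 in CL1-5 and 9434, 9221 and 9917 in CL1-0 (log2 fold change 0.18, SE 0.05, adjusted p = 0.019). RPL30, which also binds its own transcript in yeast, measured 12348, 12942 and 12869 in CL1-5 and 10865, 11318 and 11568 in CL1-0 (log2 fold change 0.18, SE 0.05, adjusted p = 0.021). In each of these 4 genes the lines did not overlap, and the differences are under 1.5-fold. Without a trend in the prior variance only RPS25 and RPS29 stayed called of the 6, and leaving out single arrays left 3 to 5 members called higher. RPL35 was not called without any 1 array other than CL1-5 repeat 3, and RPL27 and RPL30 were not called without CL1-5 repeat 2 or 3 or CL1-0 repeat 1 or 2 (adjusted p from 0.0507 to 0.107 for the 3 genes).

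Among large-subunit genes lower in CL1-5, RPL14 changed most of those at or above the 99th percentile of signal. It had 5596, 5970.1 and 5223 in CL1-5 and 8116, 8121 and 7676 in CL1-0. The arrays of the lines are well apart, with a log2 fold change of -0.51 (SE 0.07, adjusted p = 2.2e-04). Another of its probe sets was brighter and moved alike, with 8186, 8689 and 8757 in CL1-5 and 11662, 11781 and 11969 in CL1-0 (log2 fold change -0.47, adjusted p = 1.7e-04 over probe sets). A dim one differed by -0.33 on the log2 scale and was not called (adjusted p = 0.054).

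Further large-subunit genes fell by smaller amounts. RPL9, part of the base near the site where translation GTPases bind, had 10379, 9781 and 8864 in CL1-5 and 12628, 12337 and 11814 in CL1-0 (log2 fold change -0.34, adjusted p = 0.0028). RPL3, which reaches towards the peptidyl transferase centre, had 10074, 10109 and 8229 in CL1-5 and 12424, 12112 and 11302 in CL1-0 (log2 fold change -0.34, SE 0.09, adjusted p = 0.010). RPL11, which with RPL5 and 5S rRNA forms a particle that can bind MDM2, had 7194, 7909 and 7167 in CL1-5 and 9161, 9088 and 8612 in CL1-0 (log2 fold change -0.27, adjusted p = 0.0059). No CL1-5 array reached the lowest CL1-0 array in these genes. RPL3 was read from a single probe set of the x kind. Also lower were the members RPL32 (log2 fold change -0.29, adjusted p = 0.0016), RPL19 (-0.25, adjusted p = 0.0060), RPL6 (-0.22, adjusted p = 0.0098) and RPL36 (-0.31, adjusted p = 0.037). RPL6 was not called with cyclic loess (adjusted p = 0.0939). RPL36 was not called with cyclic loess (adjusted p = 0.0884), without a prior trend (adjusted p = 0.0594), or without CL1-5 repeat 2 or 3 or CL1-0 repeat 1 or 2 (adjusted p of 0.0594, 0.0969, 0.101 and 0.138).

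Small-subunit genes lower in CL1-5 were RPS23, RPS7, RPS6, RPS12 and RPS27L. RPS23, which lies in the decoding centre, had 11687, 12623 and 12655 in CL1-5 and 15987, 16142 and 16807 in CL1-0. Its lines are clearly separate, with a log2 fold change of -0.41 (SE 0.06, adjusted p = 2.9e-04). A second RPS23 probe set, dimmer by far, ran the other way with 152, 159 and 128 in CL1-5 and 115, 125 and 107 in CL1-0, a log2 difference of 0.32 that was not called (adjusted p = 0.061). When a gene's probe sets were averaged RPS23 was no longer called (log2 fold change -0.04, adjusted p = 0.651).

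RPS7, which can also bind MDM2, had 10062, 9094 and 8272 in CL1-5 and 12346, 11799 and 11231 in CL1-0 (log2 fold change -0.37, SE 0.08, adjusted p = 0.0038). RPS12, a protein of the small-subunit beak, had 11918, 12083 and 10802 in CL1-5 and 15457, 14882 and 14205 in CL1-0 (log2 fold change -0.36, adjusted p = 0.0014). RPS6, the substrate of S6 kinase downstream of mTOR, had 12180.2, 11629 and 8669 in CL1-5 and 14633, 14238 and 12659 in CL1-0. Repeat 3 of CL1-5 stands well below the other two, although the lines do not overlap. The RPS6 log2 fold change was -0.37 (SE 0.12, adjusted p = 0.034), and it was not called with quantile scaling (-0.30, adjusted p = 0.0779), with cyclic loess (-0.26, adjusted p = 0.0519), without a prior trend (adjusted p = 0.0549), without CL1-0 repeat 1 (adjusted p = 0.111) or without CL1-0 repeat 2 (adjusted p = 0.105). It was called with repeats 1 and 2 alone (-0.28, adjusted p = 4.6e-04).

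**Figure D2:**
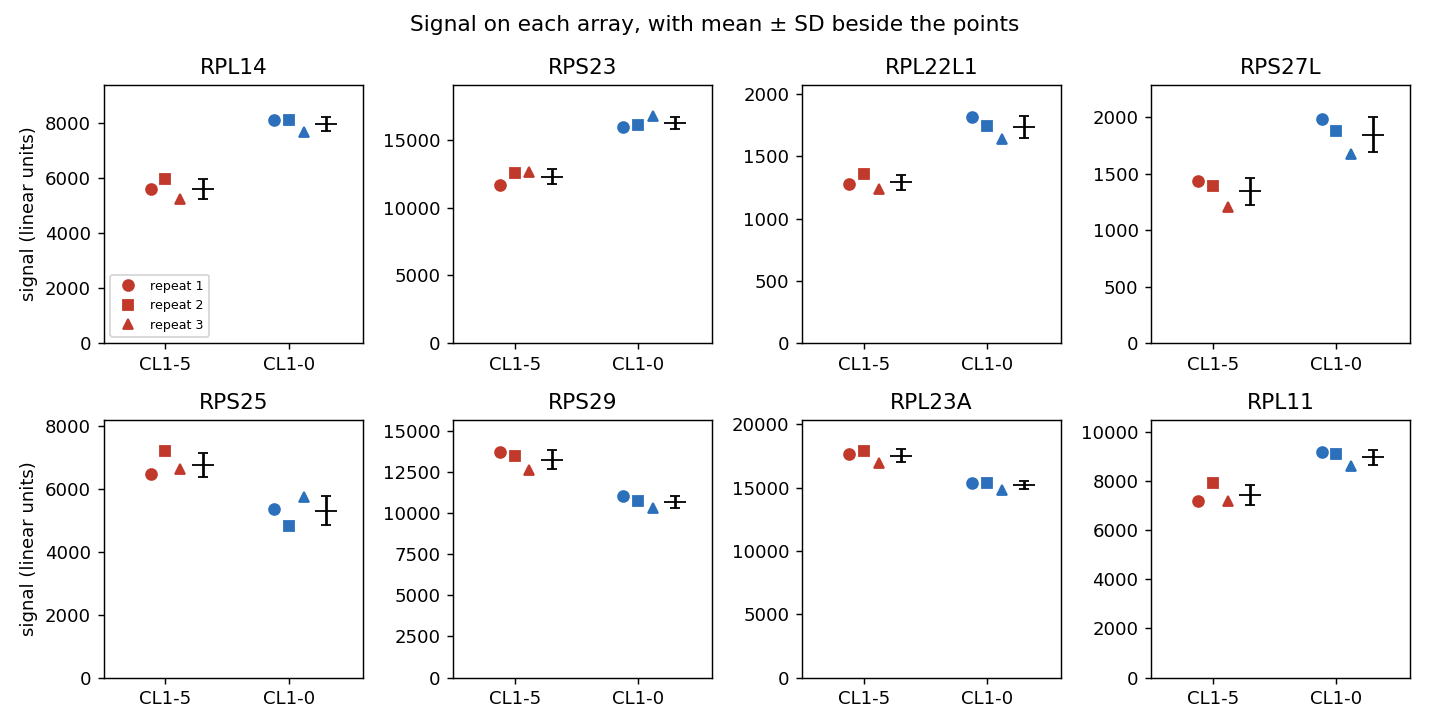
Signal of 8 ribosomal protein genes on each array, on linear axes that start at 0, with CL1-5 in red left of CL1-0 in blue, markers for repeats 1 to 3, and the mean ± SD of each line beside its points. RPL14, RPS23, RPL22L1, RPS27L and RPL11 are lower on all CL1-5 arrays, and RPS25, RPS29 and RPL23A are higher on all of them.

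Subunit paralogs were fixed as a list of 7 genes: RPL22L1, RPL39L, RPL3L, RPL10L, RPS27L, RPL26L1 and RPL7L1. Of these, 3 fell in CL1-5 and 0 rose (42.9% called, against 51.6% of all genes tested), with a median log2 fold change of -0.23. RPL22L1, the near-copy of RPL22, had 1279, 1357 and 1234 in CL1-5 and 1815, 1746 and 1639 in CL1-0. The lines do not overlap, with a log2 fold change of -0.42 (SE 0.08, adjusted p = 0.0014). RPS27L, a copy of RPS27 known as a p53 target, had 1436, 1391 and 1204 in CL1-5 and 1984, 1879 and 1676 in CL1-0 (log2 fold change -0.46, SE 0.10, adjusted p = 0.0035). A second, dim RPS27L probe set overlapped between the lines and was not called (log2 difference -0.28, adjusted p = 0.34 over probe sets). RPL10L, which stands in for RPL10 in mouse male germ cells, was dim in both lines, with 25.8, 30.3 and 34.6 in CL1-5 and 48.2, 57.9 and 45.2 in CL1-0 (log2 fold change -0.63, SE 0.13, adjusted p = 0.0027).

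The remaining paralogs did not pass the test. RPL39L, known from male germ cells, had 366, 329 and 254 in CL1-5 and 442, 396 and 286 in CL1-0, with overlapping arrays (log2 difference -0.23, SE 0.18, adjusted p = 0.33). RPL7L1 measured 2960.1, 2938 and 2938 in CL1-5 and 3390.5, 3408 and 3121 in CL1-0, apart on every array (log2 difference -0.17, adjusted p = 0.060). With the repeat number as a block, both were called lower (adjusted p of 0.0098 for RPL39L and of 0.0069 for RPL7L1). RPL26L1 (log2 difference 0.03) overlapped between the lines. RPL3L, a muscle form, lay near the 40th percentile of the arrays, at 23.9, 21.3 and 19.3 in CL1-5 and 21.2, 19.7 and 20.7 in CL1-0.

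Among the partners of these paralogs, RPL22, RPL3 and RPL7 were called lower and RPL39 and RPS27 were not called (60% called, against 51.6% of all genes tested). RPL22, an RNA-binding large-subunit protein, was followed by 5 probe sets. Its representative had 1148, 1145 and 855 in CL1-5 and 2366, 2126 and 1938 in CL1-0, a log2 fold change of -1.03 (SE 0.13, adjusted p = 1.5e-04), and a second one fell by 0.64 on the log2 scale (adjusted p = 8.9e-04). The 3 brighter ones, all of the x kind, had log2 differences from -0.15 to -0.11 and were not called. With the brightest of all taken for the gene, RPL22 was not called (log2 difference -0.15, adjusted p = 0.0785). So RPL22 and RPL22L1 had the same sign on every probe set that passed.

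RPL39, a small protein lining the exit tunnel, had 12080.4, 12621 and 13279.8 in CL1-5 and 13709.6, 13645 and 15292 in CL1-0. The arrays do not overlap, but the log2 difference of -0.17 did not pass (adjusted p = 0.063), although it did in the paired test (adjusted p = 0.0020). RPS27 had 12371, 13679 and 13305 in CL1-5 and 12205, 12684 and 12896 in CL1-0, overlapping, with a log2 difference of 0.06. RPL7 was represented by a dim probe set with 19.1, 19.5 and 18.2 in CL1-5, all at or under the 40th percentile, and 36.2, 25.5 and 22.2 in CL1-0. Its signal was therefore at least 1.28-fold lower in CL1-5 (adjusted p = 0.035), while its brightest probe set, at 13369.7, 13823 and 13282 in CL1-5 and 13695, 14173 and 13862 in CL1-0, overlapped between the lines (log2 difference -0.04). With that brightest one taken for the gene, RPL7 was not called (adjusted p = 0.494). RPL7 was also not called with cyclic loess (adjusted p = 0.0502) or with averaged probe sets (adjusted p = 0.0784). Nor was it called without any 1 CL1-5 array (adjusted p from 0.0738 to 0.0799). Without any 1 CL1-0 array the dim probe set no longer passed the filter, and RPL7 was read from its brightest one. That one was not called either (log2 differences of -0.06 to -0.03, adjusted p from 0.498 to 0.736). RPL36A, a large-subunit protein also under the 40th percentile in CL1-5, had 17.5, 16.1 and 10.6 there. In CL1-0 it had 37.6, 28.6 and 23.7, at least 1.36-fold lower in CL1-5 (adjusted p = 0.0041). The dim RPL7 probe set and that of RPL36A passed the filter only through their 3 CL1-0 arrays. The filter thus favoured a lower signal in CL1-5, and their p-values are no support for that direction.

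The large-subunit stalk, which recruits translation factors, was followed by RPLP1, RPLP2 and RPL12. Of these 3, 0 was called, against 51.6% of all genes tested, and a list this small allows no comparison with that share. RPLP1 overlapped between the lines, at 14087, 14144 and 14050.0 in CL1-5 and 14618, 14009.8 and 13824 in CL1-0 (log2 difference -0.01, SE 0.05, adjusted p = 0.94). RPL12, at the stalk base, had 16145, 15291 and 14945 in CL1-5 and 15171, 14907 and 13671 in CL1-0, overlapping (log2 difference 0.08, adjusted p = 0.28). With cyclic loess RPL12 was called higher (0.19, adjusted p = 0.0073). RPLP2 was represented by a dim probe set, at 20.8, 21.6 and 24 in CL1-5 and 19.2, 20.3 and 28.1 in CL1-0.

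Members around the exit tunnel went both ways. Of 5 tested, RPL35 and RPL23A were higher, RPL31 and RPL19 were lower and RPL39 was not called. In the list of decoding-side proteins, 1 of 4 tested was called, RPS23, and in that of the mRNA exit and exit site 1 of 3, RPS25. These lists are too small to compare with the 51.6% called of all genes tested. The genes mutated in Diamond-Blackfan anaemia, an inherited failure of red cell production, counted 3 higher (RPL27, RPL35, RPS29) and 2 lower (RPS7, RPL11) of 12 tested, with a median log2 fold change of -0.02. That is 41.7% called, against 51.6% of all genes tested.

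The 34 genes not called held 18 with a difference below 0 and 16 above 0. Below 0 were, besides those already given, RPL38, RPL27A, RPS21, RPS4X, RPL35A, RPS10, RPL24, RPL29, RPL18, RPL8, RPS24, RPS9 and RPS3, from -0.30 for RPL38 to -0.02 for RPS3 on the log2 scale. With the repeat number as a block, 8 of the 34 were called lower, RPL38, RPS21, RPS4X, RPL35A, RPS10, RPL39, RPL39L and RPL7L1. In that setting 62.7% of all genes tested were called. Above 0 were RPL37, RPS14, RPL37A, RPS28, RPL41, RPL34, RPS19, RPS15A, RPS18, RPS15, RPL10A and RPS16 besides RPL12, RPS27, RPL26L1 and RPL3L, up to 0.08. Cyclic loess called 9 of them higher, RPL10A, RPL12, RPL34, RPS14, RPS15, RPS15A, RPS16, RPS18 and RPS19, from 0.12 for RPS14 to 0.19 for RPL12. These directions therefore hold for the deposited scaling and not for every scaling.

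At the level of single probe sets, 110 of the 120 passed the filter and 10 were too dim. Of the 110, 6 were called higher and 30 lower. That is 32.7% called, against 44.4% of all 33777 probe sets tested (19.8% higher and 24.6% lower), and with the repeat number as a block 48 were lower. With cyclic loess 19 were higher and 24 lower. Over all genes tested, the called share was 62.7% with the block and 51.5% with cyclic loess. Among the 74 member probe sets with a mean signal of at least 1000, 6 were higher and 21 lower (36.5%, against 62.3% of all such probe sets, 26.7% higher and 35.6% lower). Among the 36 dimmer ones, 0 were higher and 9 lower (25%, against 42.8% of all, 19.2% higher and 23.6% lower).

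Several genes were followed by probe sets of very different brightness. Of 29 genes with more than 1 passing probe set, 0 had probe sets called in opposite directions, and in 15 of them 0 was called. The log2 fold changes of a gene's probe sets spread over more than 1 in 3 genes, RPL37, RPL31 and RPS21, which were picked out after their values were seen. RPL37, a zinc-binding large-subunit protein, had a bright probe set at 13056, 13909 and 14259 in CL1-5 and 13479.9, 13437 and 14034 in CL1-0, with overlapping arrays (log2 difference 0.01). A dim RPL37 probe set had 241, 254 and 231 in CL1-5 and 729, 787 and 612 in CL1-0 (log2 fold change -1.52, adjusted p = 2.1e-05). A further one had 156, 164 and 175 in CL1-5 and 456, 418 and 389 in CL1-0 (log2 fold change -1.31, adjusted p = 2.4e-05). The dimmest RPL37 probe set had overlapping arrays and a log2 fold change of -0.59 (adjusted p = 0.038 over probe sets). So RPL37 gave no call on its brightest probe set and more than 2-fold lower signals on some of the others.

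RPL31, a protein of the tunnel rim, was followed by 3 probe sets that also differed in size of change. The probe set that represents it had 214, 197 and 199.8 in CL1-5 and 634, 613 and 555 in CL1-0, a log2 fold change of -1.53 (SE 0.09, adjusted p = 1.3e-06). Its bright x-kind probe set had 11724, 10949 and 9824 in CL1-5 and 12929.8, 13067 and 11970.0 in CL1-0, a log2 fold change of -0.23 (adjusted p = 0.040 over probe sets). Both are lower in CL1-5 without overlap, and they differ in size. The dimmest RPL31 probe set had 159, 174 and 178 in CL1-5 and 223, 188 and 218 in CL1-0. Its log2 difference of -0.28 was not called (adjusted p = 0.061 over probe sets). The change above 2-fold in RPL31 thus rests on the representative probe set alone. RPS21, a small-subunit protein, had a bright probe set that was not called (log2 difference -0.15) and a dimmer one at 654, 513 and 499 in CL1-5 and 1744, 1401 and 1174 in CL1-0 (log2 fold change -1.36, adjusted p = 3.0e-04). RPL35A had a dim one at 53.4, 55 and 56.8 in CL1-5 and 107, 106 and 102 in CL1-0 (log2 fold change -0.85, adjusted p = 1.5e-04), while its brightest differed by -0.12. RPS4X was not called on its brightest probe set (log2 difference -0.13). Its other one, also bright, was called lower without overlap (log2 fold change -0.18, adjusted p = 0.017 over probe sets). The order was the other way in RPL38, RPS12 and RPS27L. In RPL14 the dimmest probe set changed least, but the brightest changed less than the next one (-0.47 against -0.51). For RPL38 the brightest probe set had 7427, 7433 and 5817 in CL1-5 and 9761, 9657 and 8845 in CL1-0, lower without overlap (log2 fold change -0.46, adjusted p = 0.0074 over probe sets), while the dimmer one that represents the gene was not called. With the brightest taken for the gene, RPL38 was called lower (adjusted p = 0.0043). For RPS12 the bright probe set fell by 0.36 on the log2 scale and a dim one differed by -0.09. The part of each transcript that a probe set reads was not used here, and its part in these differences was not tested.

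**Figure D3:**
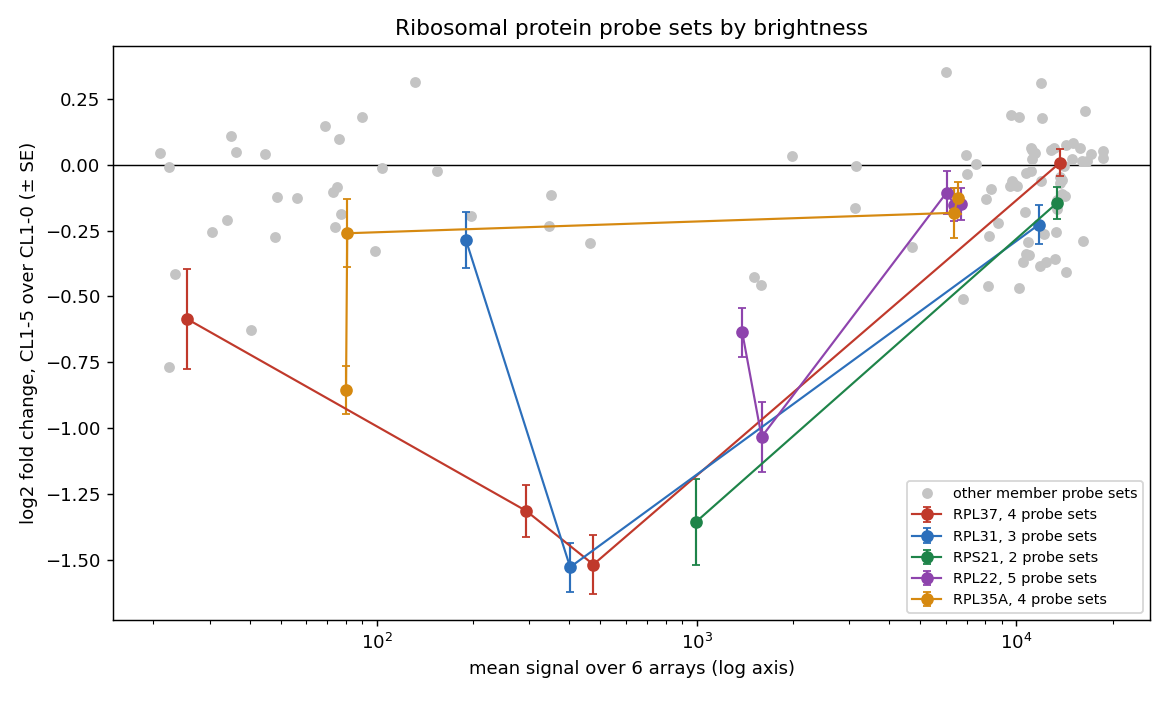
Log2 fold change of CL1-5 over CL1-0 against the mean signal over 6 arrays (log axis) for the 110 ribosomal protein probe sets that passed the filter. Coloured points joined by lines are the probe sets of RPL37, RPL31, RPS21, RPL22 and RPL35A, with limma standard errors, and grey points are the others. Most bright probe sets lie near 0. Of the coloured genes, RPL37, RPL31 and RPS21 have dim probe sets below -1 and bright ones between -0.23 and 0.01, and RPL22 has 1 below -1 with a mean signal above 1000. The dimmest probe sets of RPL37 and RPL31 lie at -0.59 and -0.28.

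A shift between repeats ran through the members. Repeat 3 was the lowest of its line in 43 of 59 genes in CL1-5 and in 44 of 59 in CL1-0, against 38.7% and 41.4% of all genes. On the same arrays the log2 ratio of 3′ to 5′ control probe sets of ACTB, a sign of RNA integrity, was highest, at 0.31, 0.40 and 0.91 in CL1-5 and 0.53, 0.44 and 1.17 in CL1-0. Within each repeat pair the median log2 difference of the members was -0.08, -0.06 and -0.09, and that of all genes -0.03, -0.05 and -0.04. The members' medians thus differed little between pairs, and the part of RNA integrity in single genes was not tested.

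Genes that work with the ribosome were compared by lists, and the share of all genes tested that was called is 51.6% (23.3% higher and 28.3% lower). Called shares were 57.1% for elongation factors and other TOP mRNAs and 68% for initiation factors. They were 40% for RNA polymerase I, 60.9% for growth signalling to translation and 53.3% for mitochondrial ribosomal proteins. FAU and RPL36AL, a subunit gene and a subunit copy whose symbols fall outside the rule, were not called (log2 differences 0.09 and 0.07), and cyclic loess called RPL36AL higher (adjusted p = 0.022). Elongation factors and other genes with TOP mRNAs counted 1 higher and 7 lower of 14 tested, with a median log2 fold change of -0.24. EEF1D, a subunit of the elongation factor 1 exchange complex, was higher, with 4933, 5030.0 and 4589 in CL1-5 and 3428, 3298 and 2798 in CL1-0 (log2 fold change 0.61, adjusted p = 3.6e-04). EIF4B, an initiation factor that aids the eIF4A helicase, was lower (log2 fold change -0.61, adjusted p = 4.4e-04), as were HNRNPA1 (-0.70) and NACA (-0.65), both read from dim probe sets.

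Initiation factors counted 2 higher and 15 lower of 25 tested, with a median log2 fold change of -0.34. EIF4H had 1584, 1674 and 1537 in CL1-5 and 2824, 2707 and 2528 in CL1-0 (log2 fold change -0.75, adjusted p = 3.4e-05). EIF3A, the largest eIF3 subunit, fell by 0.70 and EIF2B3 by 0.58 on the log2 scale. EIF5 was lower on its representative probe set (log2 fold change -1.27, adjusted p = 2.1e-05), but not when s-kind probe sets were left out (0.05, adjusted p = 0.786). EIF2B3 was not called without CL1-0 repeat 1 or 2 (adjusted p of 0.0555 and 0.0535). The list counted 3 higher and 9 lower with cyclic loess, 3 higher and 21 lower with the repeat number as a block, and 2 higher and 10 to 15 lower with single arrays left out.

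Ribosome biogenesis factors, which process rRNA and assemble subunits, counted 6 higher and 25 lower of 44 tested, with a median of -0.46. The higher count was 3 without CL1-5 repeat 1 and 2 at a threshold of 0.01, and with single arrays left out 23 to 28 were lower. WDR12, of the PeBoW complex of large-subunit assembly, had 972, 876 and 857 in CL1-5 and 2407, 2189.9 and 2001 in CL1-0 (log2 fold change -1.28, adjusted p = 4.7e-06). MAK16 and UTP14A, both assembly factors, fell by 1.26 and 1.04 on the log2 scale. RRP12 fell by 1.47 on its s-kind probe set, and another of its probe sets did not pass (-0.22, adjusted p = 0.138). Over this list 70.5% were called, against the 42.4% of ribosomal protein genes. The share was 51.6% over all genes tested and 67.3% over all genes with a mean signal of at least 1000. The difference between the lists was not tested.

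RNA polymerase I, which makes rRNA, counted 1 higher and 5 lower of 15, against 4 higher and 6 lower with the repeat number as a block and 3 higher and 5 lower with cyclic loess. With single arrays left out, 1 or 2 were higher and 5 lower. POLR1F had 95.1, 112 and 108 in CL1-5 and 387, 368 and 312 in CL1-0 (log2 fold change -1.69, adjusted p = 3.2e-06), POLR1A fell by 0.81 and TAF1D by 0.43. TAF1B rose by 0.63 on the log2 scale (adjusted p = 0.0085), but not when its probe sets were averaged (adjusted p = 0.131). Growth signalling to translation counted 7 higher and 7 lower of 23, and 8 higher and 4 lower with cyclic loess. The lower count was also 4 without CL1-5 repeat 2 or CL1-0 repeat 2. MYC, a transcription factor that drives ribosomal genes, had 3816, 3746 and 3230.3 in CL1-5 and 1952, 1925 and 1343 in CL1-0, a log2 fold change of 1.06 (adjusted p = 2.7e-04). MTOR itself had 111, 102 and 119 in CL1-5 and 242, 226 and 250.2 in CL1-0 (log2 fold change -1.07, adjusted p = 2.3e-05), and its activator RHEB fell by 0.70. LARP4, a poly(A)-binding protein partner, fell by 1.48. So genes of this list were called in both directions.

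Mitochondrial ribosomal proteins, a separate set made for the ribosome inside mitochondria, counted 11 higher and 29 lower of 75, against 17 higher and 38 lower with the repeat number as a block and 17 higher and 24 lower with cyclic loess. The higher count was 5 without CL1-5 repeat 2 and 7 without CL1-5 repeat 1, and the lower count was 19 without CL1-0 repeat 2. Their log2 fold changes ran from -1.34 for MRPL40 to 2.33 for MRPS2, which had 1998, 2043 and 2161 in CL1-5 and 402, 413 and 398 in CL1-0. MRPL52 rose by 1.25 and MRPS35 fell by 1.28. The cytosolic members ran from -1.53 to 0.35, and the difference between the sets was not tested.

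**Figure D4:**
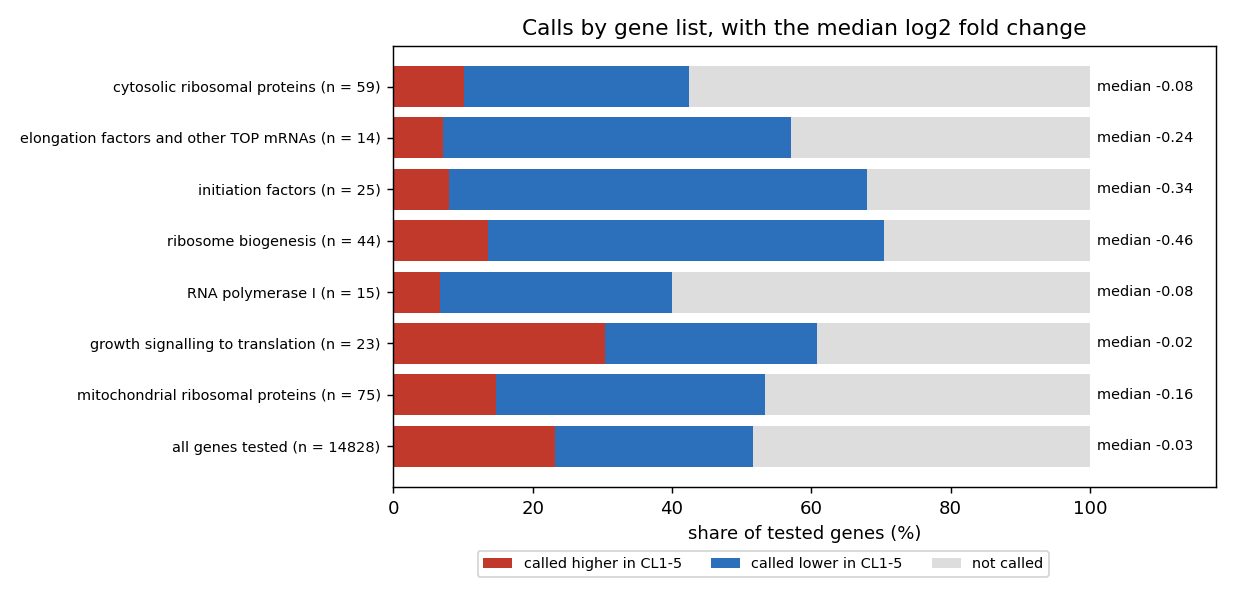
Share of tested genes called higher in CL1-5 (red), called lower (blue) or not called (grey) in each gene list, with the number tested and the median log2 fold change. In these counts, cytosolic ribosomal proteins (median -0.08, or 0.02 with cyclic loess) have a smaller called share than ribosome biogenesis factors (median -0.46) and than all genes tested. With cyclic loess, which is not drawn, 15 of them were higher and 15 lower, and 51.5% of all genes were called.

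The lines were checked against markers. KRT8 and KRT18, keratins of simple epithelium, were higher in CL1-5, at means of 555 and 4222, than in CL1-0, at 49.4 and 46.5. NKX2-1, a lung lineage factor, was dim in both (25.0 ± 0.50 in CL1-5 and 26.9 ± 3.30 in CL1-0, SD, n = 3 each), and KRT19 stayed under the 40th percentile on all arrays. Of the 10 lung epithelial markers, 2 were called higher and 1 lower, EPCAM, which was at least 1.35-fold lower in CL1-5. EPCAM passed the filter only through its CL1-0 arrays, which favoured a lower call, so the call is no support for that direction. Of 6 fibroblast and 5 leukocyte markers, 0 were called, with 3 and 1 bright enough to test, and of 4 endothelial markers 1 of 2 tested was called, PECAM1, at means of 115 in CL1-5 and 49.8 in CL1-0.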

How the data were processed

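Total RNA was labelled as biotinylated cRNA and hybridised to Affymetrix arrays, 3 per line. The deposited table holds linear intensity values, 1 per probe set and array, and MAS5 is named per the submitters' processing notes. Its version is not given in the sources used here. Array medians lay between 30.2 and 30.9, and no detection call was used.

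A constant of 6.85, the 10th percentile over the whole table, was added to each signal before log2, so fold changes of dim probe sets are understated. The filter asked for a signal above the array's 40th percentile on at least 3 of 6 arrays, and left 14828 genes and 33777 probe sets. Each gene was represented by its brightest passing probe set, those of the x kind being set aside where another passed. Tests used limma 3.58.1 under R 4.3.3 (lmFit, eBayes with a trend), Benjamini-Hochberg adjustment over all genes or all probe sets, and a threshold of 0.05. A gene whose 3 arrays in 1 line did not exceed the 40th percentile, which stands in for background, has its fold given as a bound. Symbols were updated, and starts taken, from RefSeq on GRCh38.p14.

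Named genes were up to 10 called members per direction, the paralog, stalk, 5S and S6 lists and up to 4 called genes of each other list. Other members are named because every member is accounted for. The members and lists were chosen with earlier results of these data known. Same-numbered repeats deviated together (correlations of 0.475, 0.280 and 0.649), so the repeat number was treated as pairing the samples and run as a block beside the unblocked test. Other alternatives changed the constant, the filter, the scaling, the prior, array weights, the arrays, the threshold and the probe set of a gene. The procedure was tested on simulated data for CL1-5 against CL1-0, in which 200 of 14828 genes were changed. The fit recovered 0% of changes of 0.25 on the log2 scale, 28% of those of 0.5, 70% of those of 1 and 98% of those of 2, and 5 of the 103 calls were false. The simulated noise was independent on each array, unlike the repeats here. In the data 51.6% of genes were called, which loosens the adjusted threshold. These recovery rates therefore check the procedure and do not give the power of the real comparison. The p-values rest on how the repeats of a line vary.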

Additional observations from a re-analysis of the deposited data

How the results depend on the processing

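Of the 25 called ribosomal protein genes, 13 were called in the same direction under all 21 alternatives (RPL10L, RPL11, RPL14, RPL19, RPL22L1, RPL31, RPL32, RPL9, RPS12, RPS25, RPS27L, RPS29 and RPS7), and 0 was called in the opposite direction under any of them. RPL10L, RPL11, RPL19, RPL22L1, RPL32, RPL9, RPS25 and RPS29 had 1 passing probe set each. The alternatives that change the probe set could therefore not alter their values. RPS12 had probe sets of the x kind only. All 25 calls were kept with either added constant, without the filter, with the filter on 2 arrays and with median scaling. Median scaling shifted the members by a median of only 0.0012. These settings therefore add little to the count of 13. The share of calls kept among all called genes was not counted. The 6 genes called higher became 15 with cyclic loess, 2 without a prior trend, 3 at a threshold of 0.01 and 3 to 5 when each array was left out in turn, with 3 without CL1-0 repeat 1, CL1-0 repeat 2 or CL1-5 repeat 2. The 6 probe sets called higher became 19 with cyclic loess, 2 without a prior trend, 3 at a threshold of 0.01 and as few as 3 with an array left out. The 30 probe sets called lower became 47 with array weights and 48 with the replicate block. The block changed the calls of the genes for which it is given above and no other member call. Called shares over all genes moved too, from 51.6% to 69.4% with array weights and 62.7% with the block. They were 51.5% with cyclic loess, 51.2% without a prior trend, 40.4% at a threshold of 0.01 and 43.2% to 51% with single arrays left out. The median log2 fold change of -0.081 became -0.0468 with quantile scaling, 0.0195 with cyclic loess, -0.0662 with array weights, -0.1055 with averaged probe sets, -0.1201 without x and s kinds where another passed, and -0.1168 to -0.03676 with single arrays left out. RPLP1 turned positive with quantile scaling (0.0743), cyclic loess (0.103), averaged probe sets (0.052) and without x and s kinds (0.109), RPLP2 without CL1-0 repeat 3 (-0.0884 to 0.123 over the arrays left out), FAU turned negative without that array (-0.0226 to 0.159 over the arrays left out), and EIF5 turned positive without x and s kinds (0.0481); the cause was not tested. With the brightest probe set of any kind, an alternative chosen after seeing the data, as was the split by brightness, RPL22 and RPL7 lost their calls and RPL38 was called lower. RPL36A no longer passed the filter without any 1 of the CL1-0 arrays, and RPL7 was then read from another probe set. Signals near the 40th percentile (RPL36A, RPL7, RPL3L, RPLP2) limit what can be said of those probe sets.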
